A study of Homo sapiens with 4 samples.

Results

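The circRNAs described here are the short ones, whose back-splice joins 2 positions less than 2 kb apart on the genome. They were measured in 4 established human liver cancer lines, namely Huh-7D12, SK-Hep-1, Hep3B and HepG2. A circRNA was counted when it had reads in at least 1 line, exactly 1 host gene and a distance under 2000 bases between its deposited positions. That gave 1307 of 7604 single-host circRNAs, from 1131 host genes, and 1278 of the 1307 came from protein-coding hosts. No measured level was used to choose them beyond the presence of a read. Each line was sequenced once, as total RNA freed of ribosomal RNA and not selected for poly(A) tails, and the labels name no treatment, genotype or transgene. With 1 library per line there are no replicates, so no test, p-value or standard deviation can be given, and a difference between lines is a difference between libraries. The 95% intervals cover counting error only. SK-Hep-1 stood apart from its label in that ALB and HNF4A, which define hepatocytes, had 0 reads there, while the other 3 lines had 70923 to 298342 reads of ALB.

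A circRNA forms when the spliceosome joins the end of an exon to the start of the same exon or of an exon upstream, so that the exons between close into a ring with no cap and no poly(A) tail. Such rings resist exonucleases that start at RNA ends. The introns around the ring are often long and often hold inverted repeats that can pair, and several RNA-binding proteins are known to favour or hinder the reaction. Most rings stay in the cytoplasm. The join itself is the stretch that the linear RNA of the same gene lacks, and it is therefore the sequence by which a circRNA is counted, and the one an antisense oligonucleotide must cover to act on the ring alone.

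The joins of the circRNAs on which the results turn are shown here as 30 bases, with the last 15 bases of the loop in lower case and the first 15 in capitals. The first 9 are from abundant short circRNAs found in every line, and the other 7 from some whose levels differed between lines. The sequences are GENCODE 29 transcript sequence on GRCh38, read 5′ to 3′ on the strand of the host gene.
NFATC3, chr16:68121987-68123121 (+), exon 2: cacccctatatttcgATCTTGAGCCAGATG
CDYL, chr6:4891713-4892379 (+), exon 2: ctgttaacgggaaagGTTGAAAGGATTGTT
CAMSAP1, chr9:135881633-135883078 (-), exons 2 and 3: ttctggatcaacaagATAACATCCCTGAGG
HIPK3, chr11:33286413-33287511 (+), exon 2: atctcggtactacagGTATGGCCTCACAAG
HIPK2, chr7:139715932-139717015 (-), exon 2: gtccagatattacagGTATGGCCTCACATG
ZKSCAN1, chr7:100023419-100024307 (+), exons 2 and 3: tcttacagtcacgagGAATAGTAAAGAAAC
FBXW7, chr4:152411303-152412529 (-), exons 3 and 4: acaaaaacaacaaaaGATTACTTCCTTAGG
GSE1, chr16:85633914-85634132 (+), exon 2: cggaggagcccagagGCATGAGCCATGAGC
SMARCA5, chr4:143543509-143543972 (+), exons 15 and 16: agagaaaaacaaaagGGAGGCTTGTGGATC
LPAR1, chr9:110972073-110973558 (-), exons 2 and 3: atttcacagccccagGTGGACGTCTGATTT
AXL, chr19:41230967-41231298 (+), exons 5 and 6: cactgcaccctgcagGGCTGAACAAGACAT
SLC8A1 long loop, chr2:40428473-40430304 (-), exon 2: gaatgatgaaattgtTAGGTTGTGACAGTT
SLC8A1 short loop, chr2:40428473-40430301 (-), exon 2: gaatgatgaaattgtGTTGTGACAGTTGGA
ALB, chr4:73420254-73420321 (+), exon 14: ttaaaagcatctcagGGTAAAAAACTTGTT
LPAR3, chr1:84865385-84866138 (-), exon 2: tgatgactgtcttagGATGTTCACTTCTCC
GLIS3, chr9:4286038-4286523 (-), exon 2: caaatcctgggaaagGCTTATAACCCACAC

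Among the 1084 short circRNAs whose loop could be read from 1 annotated transcript, none shared its 30 bases with any of the 6389 circRNAs so read, while 2 longer circRNAs of the FIRRE gene shared theirs. HIPK3 and HIPK2 are related kinase genes, and their joins, both formed by exon 2, resemble each other in the capitals and still differ.

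Levels are given as normalized back-splice reads, which are the reads across a join times 1 factor per library.

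The first question was how much of the circular RNA the short circRNAs make up. They were 17.2% of the single-host circRNAs (Wilson 95% interval 16.4 to 18.1) and held 8078 of 38301 back-splice reads, or 21.1% (20.7 to 21.5). The share of reads was 21.6% in Hep3B (20.9 to 22.4), 24.7% in HepG2 (23.6 to 25.8), 20.1% in Huh-7D12 (19.4 to 20.8) and 19% in SK-Hep-1 (18.1 to 19.9). HepG2 thus had the highest share, and its interval did not overlap those of the other 3 lines. CircRNAs of 2 to 10 kb also held more of the reads in HepG2, 40.6% (39.4 to 41.9), than in the other 3 lines, 32.2% to 34.5%. Of the detected circRNAs, the short ones were 22.6% in HepG2 (20.9 to 24.3), 18.1% in Huh-7D12 (17.0 to 19.4), 18% in Hep3B (16.8 to 19.2) and 16.6% in SK-Hep-1 (15.3 to 18.1), with HepG2 again above the others. HepG2 also had the fewest single-host back-splice reads, 5934, whereas SK-Hep-1 had 7424, Hep3B 12152 and Huh-7D12 12791. When every line was brought to the depth of 5934 reads, the expected share of short circRNAs was 18.3% in Hep3B, 16.6% in SK-Hep-1 and 18.2% in Huh-7D12, against the 22.6% of HepG2, so the gap was as large at equal depth.

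**Figure D1:**
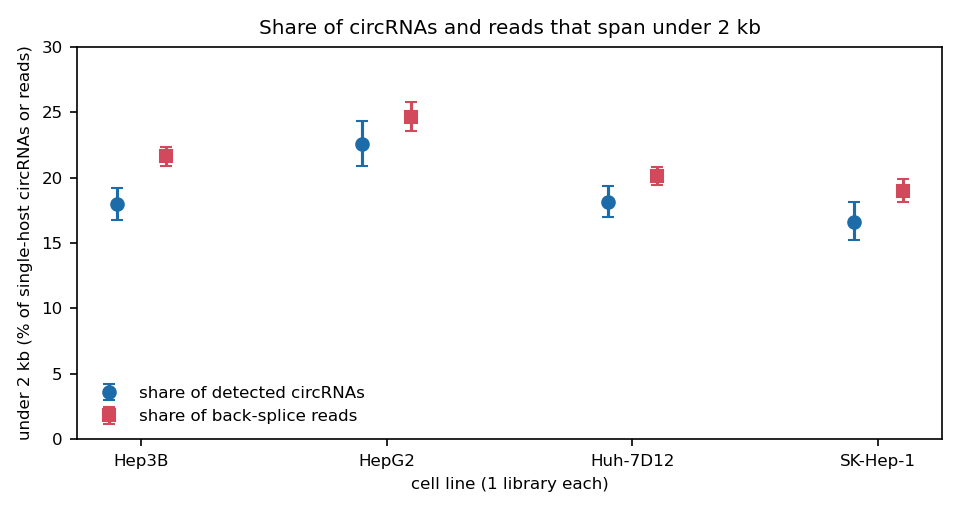
Share of short circRNAs (under 2 kb, y axis in %) among the detected single-host circRNAs (blue circles) and among their back-splice reads (red squares) in each line, with Wilson 95% intervals for counting error. HepG2 stands highest in both, at 22.6% of circRNAs and 24.7% of reads, and in every line the share of reads lies above the share of circRNAs.

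Huh-7D12 showed 704 short circRNAs from 2575 back-splice reads, Hep3B 676 from 2629, HepG2 515 from 1464 and SK-Hep-1 436 from 1410. At equal depth HepG2 had 515, and the expected numbers were 513 in Huh-7D12, 499 in Hep3B and 401 in SK-Hep-1, so most of the gap among the other 3 lines disappeared and SK-Hep-1 remained lowest. Most short circRNAs were rare: 715 (54.7%) were seen in 1 line only, and the median over the 4 lines together was 3 reads. All 4 lines held 136 of them, which is 10.4% (8.86 to 12.2), against 8.09% (7.09 to 9.23) of the circRNAs of 2 to 10 kb, 6.29% (5.51 to 7.18) of those of 10 to 50 kb and 2.86% (1.77 to 4.59) of those of 50 kb or more. At least 10 reads in total were held by 12% of the short circRNAs, 10.1% of those of 2 to 10 kb, 7.96% of those of 10 to 50 kb and 4.29% of those of 50 kb or more. Of these better covered circRNAs, 66.2% of the short ones were found in all 4 lines. The share was 62.3% for 2 to 10 kb, 58.5% for 10 to 50 kb and 45.8% for 50 kb or more. The mean number of reads went the same way, with 6.18 for the short circRNAs, 5.37 for 2 to 10 kb, 4.56 for 10 to 50 kb and 3.66 for 50 kb or more. The median was 3 reads both for the short circRNAs and for 2 to 10 kb, and 2 for each of the longer classes. Reads were concentrated in few circRNAs, since the 15 with the most reads held 20.7% of the reads of the short class and the first 50 held 36.3%. The same numbers of circRNAs held 17.3% and 27.8% of the reads for 2 to 10 kb, 8.40% and 18.5% for 10 to 50 kb and 20.4% and 35.3% for 50 kb or more, in classes of 2496, 3241 and 560 circRNAs.

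The 15 short circRNAs with the highest mean level are described by host gene. NFATC3, which encodes a transcription factor of the NFAT family, had 155 normalized back-splice reads in HepG2 (127 to 186), 54.2 in Huh-7D12 (40.2 to 71.4), 51.6 in Hep3B (39.2 to 66.8) and 14.8 in SK-Hep-1 (7.39 to 26.5). The interval in HepG2 lay above those of the other lines and that in SK-Hep-1 below them. In RNA of whole cultures, fewer cells that hold a circle and fewer copies per cell cannot be told apart. The NFATC3 gene reads followed a like order, with 2017 in HepG2, 991 in Huh-7D12, 1079 in Hep3B and 291 in SK-Hep-1, so that the circle had 55.0 back-splice reads per 1000 gene reads in HepG2, 50.5 in Huh-7D12, 53.7 in Hep3B and 37.8 in SK-Hep-1. This ratio compares 1 gene across lines and not one gene with another, since gene reads grow with the length of the transcript. The short circle was 1 of 11 circRNAs of NFATC3 and held 230 of their 864 reads.

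CDYL, which encodes a chromodomain protein of repressive chromatin, had the most even level of the leading circles. Its exon 2 loop of 667 bases had 88.2 normalized back-splice reads in Hep3B (71.6 to 107), 65.5 in HepG2 (48.2 to 87.2), 57.9 in SK-Hep-1 (41.9 to 78.0) and 49.8 in Huh-7D12 (36.5 to 66.5). The interval of Hep3B lay above that of Huh-7D12, and all other pairs of lines overlapped. Per 1000 gene reads the CDYL circle had 168 in Huh-7D12, 119 in Hep3B, 96.9 in HepG2 and 56.7 in SK-Hep-1. No other circRNA of CDYL was seen in these libraries.

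CAMSAP1 encodes a protein that binds the minus ends of microtubules, and its loop of exons 2 and 3 stood out in Huh-7D12. It had 88.8 normalized back-splice reads there (70.6 to 110), 34.9 in HepG2 (22.6 to 51.5), 30.3 in Hep3B (21.0 to 42.3) and 20.2 in SK-Hep-1 (11.3 to 33.3). The interval of Huh-7D12 lay above the other 3, which overlapped. The CAMSAP1 gene reads were 1044 in Huh-7D12, 581 in HepG2, 903 in Hep3B and 760 in SK-Hep-1, and per 1000 of them the circle had 78.5 reads in Huh-7D12, 43.0 in HepG2, 37.7 in Hep3B and 19.7 in SK-Hep-1.

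Of the 28 short circRNAs from kinase genes picked by symbol prefix, a set that leaves out kinases such as AXL, HIPK3 led. Its exon 2 loop of 1099 bases contains the start codon and had 55.2 normalized back-splice reads in Huh-7D12, 44.5 in Hep3B, 44.4 in SK-Hep-1 and 15.3 in HepG2. HepG2 was lowest, with an interval of 7.66 to 27.4 that lay under those of the other 3 lines. The loop of its relative HIPK2, 1084 bases long and likewise exon 2, was rarer and more even, with 14.1 in Huh-7D12, 9.76 in HepG2, 9.42 in SK-Hep-1 and 7.12 in Hep3B and intervals that all overlapped.

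ZKSCAN1 and ZNF609 encode zinc finger proteins. The ZKSCAN1 loop of exons 2 and 3 had 57.9 normalized back-splice reads in Hep3B and 51.6 in HepG2, while SK-Hep-1 had 18.8 and Huh-7D12 24.9. The interval of Hep3B (44.7 to 73.8) lay above those of SK-Hep-1 (10.3 to 31.6) and Huh-7D12 (15.8 to 37.4). That of HepG2 (36.3 to 71.1) lay above that of SK-Hep-1 and overlapped that of Huh-7D12. ZNF609 had 29.6 in SK-Hep-1, 28.5 in Hep3B, 22.8 in Huh-7D12 and 9.76 in HepG2. HepG2 was lowest, with an interval of 3.93 to 20.1 that still overlapped those of Hep3B, Huh-7D12 and SK-Hep-1. The ends of the ZNF609 loop, chr15:64499293-64500166, lie on exon ends of different annotated transcripts, and its loop was not read out.

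FBXW7, the substrate-binding subunit of a ubiquitin ligase that marks MYC and cyclin E, gave a loop of exons 3 and 4. It had 47.2 normalized back-splice reads in Hep3B, 35.7 in Huh-7D12, 26.9 in SK-Hep-1 and 19.5 in HepG2, with the intervals of Hep3B (35.4 to 61.7) and HepG2 (10.7 to 32.8) apart. GSE1 encodes a coiled-coil protein, and its exon 2 loop of 219 bases had 45.4 in Hep3B, 37.7 in HepG2, 17.5 in SK-Hep-1 and 4.33 in Huh-7D12. The GSE1 gene itself had 1536 reads in Hep3B, 1212 in HepG2, 233 in SK-Hep-1 and 1016 in Huh-7D12. Huh-7D12 was thus low for the circle and not for the gene, at 3.94 back-splice reads per 1000 gene reads, against 55.8 in SK-Hep-1, 33.2 in Hep3B and 22.3 in HepG2.

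POLR2A, the largest subunit of RNA polymerase II, and SKIL, a repressor of SMAD signalling, also reached the first 15. The POLR2A loop had 50.9 normalized back-splice reads in Huh-7D12, 18.8 in SK-Hep-1, 12.5 in HepG2 and 8.01 in Hep3B, and the interval of Huh-7D12 (37.4 to 67.7) lay above the others. Its 2 ends met in an annotated noncoding transcript of the gene. SKIL, with a single exon of 1731 bases, had 38.3 in Hep3B, 21.7 in Huh-7D12, 8.37 in HepG2 and 8.08 in SK-Hep-1. The SKIL gene reads were 3450 in Hep3B, 1512 in Huh-7D12, 481 in HepG2 and 972 in SK-Hep-1, and per 1000 of them the circle had 12.5 reads in Hep3B, 13.2 in Huh-7D12, 12.5 in HepG2 and 6.17 in SK-Hep-1.

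RERE, an atrophin-family corepressor, and GLIS3, a Krüppel-like zinc finger factor, came next. RERE, lowest in SK-Hep-1, had 34.7 normalized back-splice reads in Huh-7D12, 15.1 in Hep3B, 13.9 in HepG2 and 4.04 in SK-Hep-1. GLIS3, with no read in HepG2, had 49.8 in Huh-7D12, 12.5 in Hep3B, 1.35 in SK-Hep-1 and 0 in HepG2. The GLIS3 gene had 459 reads in Huh-7D12, 403 in Hep3B, 318 in SK-Hep-1 and 6 in HepG2, so that SK-Hep-1 was low for the circle with 318 gene reads present. MALAT1, an abundant nuclear noncoding RNA, had its highest level, 25.6, in SK-Hep-1 and its lowest, 11.9, in Huh-7D12, with HepG2 at 12.5 and Hep3B at 21.4, from 211 bases inside 1 exon. Only its last base lay on an annotated exon end.

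**Figure D2:**
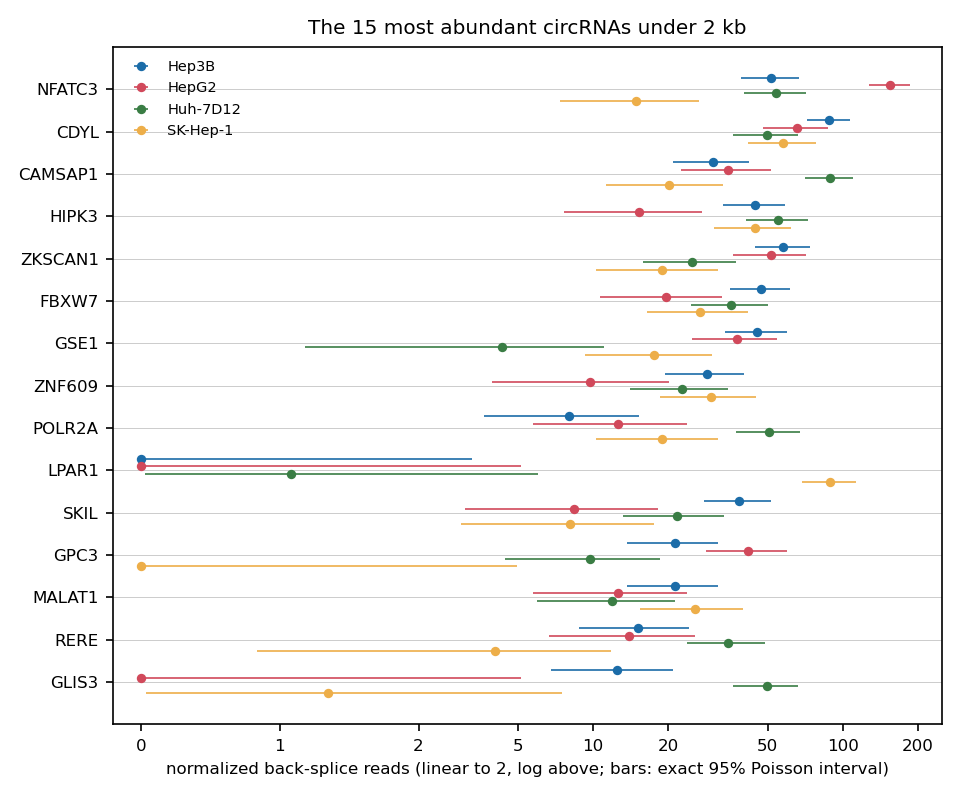
Normalized back-splice reads (x axis, linear to 2 and logarithmic above) of the 15 short circRNAs with the highest mean, 1 point per line with its exact 95% Poisson interval for counting error. NFATC3 stands highest in HepG2 at 155, LPAR1 is at 88.8 in SK-Hep-1 and at 0 or 1.08 elsewhere, and CDYL lies between 49.8 and 88.2 in all 4 lines.

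The structure of the loops was read from the annotation. Both ends lay on exon ends of 1 transcript for 1084 short circRNAs (82.9%), of different transcripts for 16, and at 1 end only for 207 (15.8%). The 1084 held 87.4% of the reads of the class. Of these loops 331 (30.5%) were a single exon, 570 (52.6%) were 2 exons, 150 were 3 and 33 were 4 or more. The median loop was 323.5 bases long after splicing, with quartiles of 253 and 448 (the range was 68 to 1982), against medians of 437 for circRNAs of 2 to 10 kb, 694.5 for 10 to 50 kb and 1056 for 50 kb or more. The small exon number and short loop go with the span limit that defines the class. Among circRNAs of 2 to 10 kb, 1.30% were single exons, and none were above 10 kb.

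**Figure D3:**
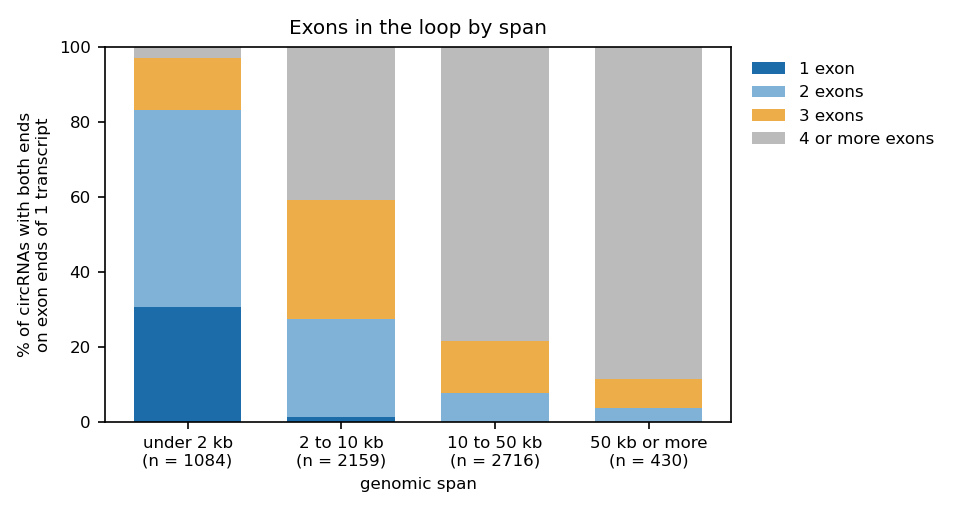
Share of circRNAs (y axis, %) with 1, 2, 3 or at least 4 exons in the loop, by genomic span, for circRNAs with both ends on exon ends of 1 transcript (n under each bar). Short loops were of 1 exon in 30.5% and of 2 exons in 52.6%, while 88.6% of the circRNAs of 50 kb or more held at least 4.

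The exons that closed on themselves were long. Their median was 468 bases, against 132 bases for the 14641 internal exons of all 973 transcripts that hold a short loop, and 68.9% of them were over 300 bases, against 5.20% of the internal exons. The single-exon loops held 39.2% of the reads of the short class, as many as the 570 loops of 2 exons, also 39.2%. A single-exon loop had 9.56 reads on average and 21.8% of them had at least 10, against 5.55 reads and 10% for loops of 2 exons and 3.90 reads and 6.67% for loops of 3. The median was 3 reads for loops of 1 and of 2 exons. Among the longest loops with at least 10 reads in a line were SLC8A1 (1832 bases), SKIL (1731), NUFIP2 (1725), ZBTB20 (1605), KANSL1 (1378), NFATC3 (1135) and MGA (1131), all single exons. KANSL1, a scaffold of a histone acetyltransferase complex, had 21.4 normalized back-splice reads in Hep3B, while HepG2 had 11.2, Huh-7D12 10.8 and SK-Hep-1 6.73. MGA, a partner of MAX, had 26.7 in Hep3B, 16.3 in Huh-7D12, 15.3 in HepG2 and 4.04 in SK-Hep-1. Both had their lowest level in SK-Hep-1.

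**Figure D4:**
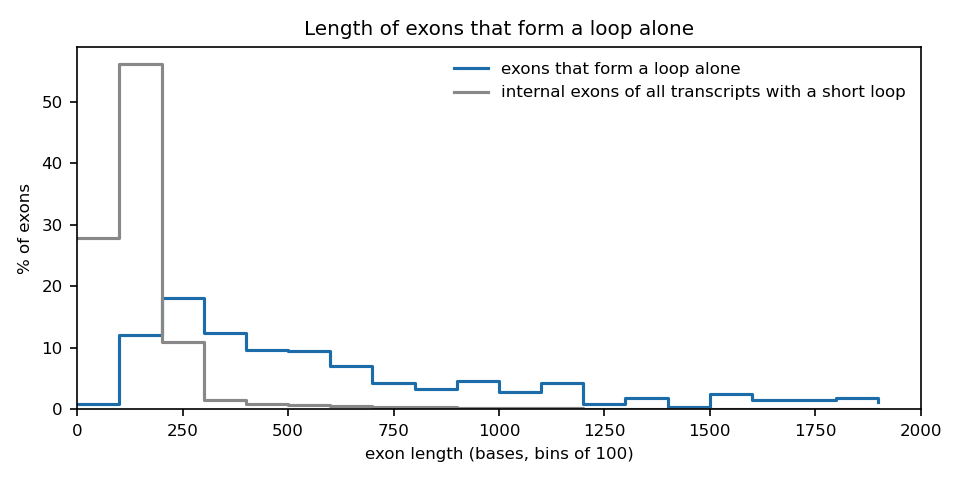
Length (x axis, bases, in bins of 100) of the 331 exons that form a short loop alone (blue) and of the 14641 internal exons of all transcripts that hold a short loop (grey), as % of each set (y axis). The internal exons peak at 100 to 200 bases, whereas 68.9% of the looped exons are over 300 bases.

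The shortest loops with at least 10 reads in a line were those of ALB (68 bases), UBAP2 (159), DYRK1A (179), AXL (197) and GSE1 (219). Reads were 100 bases long, and 4 of the 1084 loops were shorter than that, with 49 reads in all, 36 of them from ALB. Short loops of coding sequence can be shown whole, here with the first and the last 15 bases in capitals, which meet in the ring. SMARCA5, an ATPase that moves nucleosomes, gave a loop of 269 bases with 22 reads in Hep3B, 15 in Huh-7D12, 10 in HepG2 and 4 in SK-Hep-1. UBAP2, a ubiquitin-associated protein, gave a loop of 159 bases with 16 reads in Hep3B, 8 in Huh-7D12, 5 in HepG2 and 3 in SK-Hep-1. Both were found in every line.
SMARCA5: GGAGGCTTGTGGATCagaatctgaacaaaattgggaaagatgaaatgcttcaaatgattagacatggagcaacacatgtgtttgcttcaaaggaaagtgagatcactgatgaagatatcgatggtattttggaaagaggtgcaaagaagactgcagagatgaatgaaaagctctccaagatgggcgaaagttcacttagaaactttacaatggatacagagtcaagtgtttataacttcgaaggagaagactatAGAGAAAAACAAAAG
UBAP2: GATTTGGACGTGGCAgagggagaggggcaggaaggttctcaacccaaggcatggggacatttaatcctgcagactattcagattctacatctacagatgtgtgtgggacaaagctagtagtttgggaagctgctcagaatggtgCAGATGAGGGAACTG

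Within the host transcripts, 29.2% of the short loops began at exon 2, against 26.9% of the circRNAs of 2 to 10 kb, 38.8% of those of 10 to 50 kb and 47.0% of those of 50 kb or more. Loops that began at exon 2 had 9.95 reads on average, and 20.2% of them reached 10, against 5.09 reads and 10.1% for loops that began at exon 3 or later. The median was 3 reads for each of these groups. The share that began at exon 2 was 25.4% among short circRNAs with 1 to 4 reads, 34.9% with 5 to 19, 47.8% with 20 to 49 and 64.7% of the 17 matched ones with 50 or more. Of the 1055 loops in coding transcripts, 853 (80.9%) were coding sequence throughout, 183 (17.3%) held 5′ untranslated bases and 172 (16.3%) held the start codon, as did the loops of HIPK3, ZKSCAN1, FBXW7, SKIL, RERE and GLIS3. Among the 853, the length of 327 (38.3%) was a multiple of 3, so that the reading frame could run through the join. In 324 of these no stop codon of the host frame stood in the loop. These loops were chosen as coding sequence throughout, so the near absence of stops was largely set by that choice. For circRNAs of 2 to 10 kb the same counts were 620 of 1816 (34.1%) and 618 of the 620. Multiples of 3 made up 37.3% for 10 to 50 kb and 38.1% for 50 kb or more, so the short class was not set apart.

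The introns beside the short loops had medians of 4879.5 bases before and 4501 bases after the loop, against 5781.5 and 5238 bases for circRNAs of 2 to 10 kb, 10974 and 8267.5 for 10 to 50 kb, and 18655 and 15055.5 for 50 kb or more. The introns of the transcripts that hold the short loops had a median of 1709.5 bases. Single-exon loops lay between the longest introns, with medians of 11945 and 12295 bases, while loops of 2 exons had 3888 and 3433 and loops of 3 had 2821 and 2972. The median intron before the loop was 4132 bases for short circRNAs with 1 to 4 reads, 6522 with 5 to 19, 13421 with 20 to 49 and 20515 with 50 or more. Among the leading circles the intron before the loop was 114905 bases in CDYL, 122411 in FBXW7, 36202 in NFATC3 and 135962 in RERE. The POLR2A loop had 828 bases before and 1147 after it, and the SKIL loop had 1935 before and 19814 after it. These values are descriptions over annotated loops. The position in the transcript, the exon length and the intron length go together in them and were not separated.

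The looped exons of the short class had a median GC content of 46.9%, against 43.6% for 2 to 10 kb, 42.8% for 10 to 50 kb and 43.1% for 50 kb or more. At the exon side of the join, 58.5% of the short loops ended in AG and 47.0% began with G, while the corresponding shares were 56.8% and 43.3% for 2 to 10 kb, 57.5% and 42.4% for 10 to 50 kb, and 59.8% and 42.6% for 50 kb or more.

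Where only 1 end of a short circRNA lay on an annotated exon end, it was the first base of the loop in 84 cases and the last base in 123. The whole loop lay inside 1 annotated exon in 62 of the 207. The 207 had a median of 2 reads, and 5.80% of them had at least 10, against 3 reads and 13.1% for the 1084 with both ends in 1 transcript. GPC3, MALAT1 and APOA1 had the most reads of this kind. APOA1, which encodes the main protein of high-density lipoprotein, had no read in SK-Hep-1, against 17 in HepG2, 14 in Hep3B and 7 in Huh-7D12, over an interval of 1144 bases. These 3 hosts had 1990 to 20018 gene reads in the lines where the circle was seen.

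Several short circRNAs shared an end. In 32 pairs from 30 hosts, 2 circles of the same host had 1 end in common: the 3′ end of the loop in 21 pairs and the 5′ end in 11. The SLC8A1 loops printed above differ by 3 bases at their start (1832 and 1829 bases) and had 29 and 8 reads, all from SK-Hep-1. GLIS3 had a loop of 486 bases with 61 reads, and a shorter one ending at the same base with 3, from Huh-7D12 and Hep3B alone. In HUWE1, a ubiquitin ligase gene, exons 21 and 22 together had 12 reads and exon 22 alone had 4. In PNN, a splicing factor gene, the main loop had 35 reads and the one that shared its end had 2. In KHDC4, the loop of exons 5 and 6 had 8 reads in Hep3B and 4 in Huh-7D12, and that of exons 5 to 7 had 2 in SK-Hep-1 and 1 in Huh-7D12. In each pair 1 loop held most of the reads.

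Most hosts had a single short circRNA (984 of 1131). ATXN2 had 4 with 23 reads in all, CANX 4 with 8, KHDC4 4 with 20 and ASH1L, a histone methyltransferase, 3 with 48. No short circRNA of ATXN2, CANX or KHDC4 had more than 12 reads, whereas the exon 5 loop of ASH1L had 14 in Hep3B, 12 in Huh-7D12, 4 in SK-Hep-1 and 3 in HepG2. In 599 of the 1131 hosts longer circRNAs were seen too, 1765 in number, with 9187 reads, against 8078 reads for the short ones of all 1131 hosts.

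The next comparison asked which short circRNAs stand apart in 1 line. A circRNA was said to stand higher in a line when its log2(normalized back-splice reads + 1.21) was at least 2 above the highest of the other 3 lines (4-fold), and lower when it was at least 2 below the lowest of them. A circRNA was considered only if its highest level reached 6.07 normalized back-splice reads, as 163 of the 1307 short circRNAs did and 735 of all 7604. With 1 factor per library, 5 reads reached this in HepG2 (6.97) and SK-Hep-1 (6.73), while 6 reads in Hep3B (5.34) did not. The counts per line therefore do not rest on the same number of reads. In SK-Hep-1, 12 of the 163 short circRNAs stood higher, against 8.16% of all 735, and 11 stood lower, against 3.67%. In Huh-7D12, 7 stood higher, against 6.39% of all, and 0 lower, against 0.272%. In HepG2, 3 stood higher, against 1.63%, and 0 lower, against 1.09%. In Hep3B, 1 stood higher, against 1.63%, and 0 lower, against 0.408%. As shares of the 163, the 12 and 11 in SK-Hep-1 are 7.36% and 6.75%, and the 7 in Huh-7D12 are 4.29%. The shares of the short class that stood higher in SK-Hep-1 and Huh-7D12 thus lay near or under those of all spans, and the share that stood lower in SK-Hep-1 lay above. These gaps were not tested. With 4 times the pseudocount, 5 of the 12 and 0 of the 11 in SK-Hep-1 still passed, as did 3 of the 7 in Huh-7D12 and 0 in HepG2 and Hep3B. LPAR1, AXL, SLC8A1, SAMD3 and LINC00632 in SK-Hep-1 and ALB, LPAR3 and AFF2 in Huh-7D12 passed under all 7 alternatives.

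SK-Hep-1 also stood apart in the markers of cell type. The summed level of 5 hepatocyte markers was 39.8 on the per-million scale of gene reads in SK-Hep-1, nearly all from SERPINA1, against 8905 in Huh-7D12, 23040 in HepG2 and 22147 in Hep3B. The summed level of 5 mesenchymal markers was 8756 in SK-Hep-1, against 786 in Huh-7D12, 14.2 in HepG2 and 275 in Hep3B, with THY1 at 0 in all of these 3. The 4 endothelial markers summed to at most 1.61 in any line. Of the 3 leukocyte markers, PTPRC was at 0 to 2 reads and LYZ brought the sum to 2364 in HepG2. AXL is one of the mesenchymal markers and is also a host below. What part the cell type of SK-Hep-1 has in the results below was not tested.

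LPAR1, a receptor of lysophosphatidic acid, gave the circle with the largest distance. It had 66 reads in SK-Hep-1, against 1 in Huh-7D12 and 0 in Hep3B and HepG2, and was 82.0-fold higher than in Huh-7D12 (exact interval 14.2 to 3288). The gene had 4179 reads in SK-Hep-1, against 35 in Huh-7D12, 5 in Hep3B and 0 in HepG2. Circle and gene were thus both high in that line alone. AXL, a receptor tyrosine kinase, had 31 reads in SK-Hep-1 for its loop of exons 5 and 6, against 0 in the other lines. With a library at 0 set to a floor of 3 reads, the AXL loop was 9.97-fold higher. Such a floor fold, here and below, leaves out counting error in the observed count, so it is not a lower limit. The AXL gene had 19296 reads in SK-Hep-1, against 254 in HepG2, 8 in Hep3B and 2 in Huh-7D12. The loop is coding sequence throughout.
AXL: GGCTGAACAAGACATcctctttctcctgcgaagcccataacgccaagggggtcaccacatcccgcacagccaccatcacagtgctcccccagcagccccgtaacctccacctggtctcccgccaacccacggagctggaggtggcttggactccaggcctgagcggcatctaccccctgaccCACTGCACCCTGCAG

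The long SLC8A1 loop, from the gene of the cardiac sodium-calcium exchanger, had 29 reads in SK-Hep-1, against 0 in the other lines (floor fold 9.33). The gene had 779 reads in SK-Hep-1, against 2 in Hep3B and 0 in HepG2 and Huh-7D12, which gives 37.2 back-splice reads per 1000 gene reads. SAMD3 had 19 reads in SK-Hep-1, against 0 elsewhere (floor fold 6.11), and its gene had 131 against 0. Only the first base of the SAMD3 loop lay on an annotated exon end. The circle listed under LINC00632, at chrX:140783175-140784659, had 18 reads in SK-Hep-1, against 1 in Huh-7D12 and 0 in Hep3B and HepG2, and was 22.4-fold higher than in Huh-7D12 (3.53 to 932). That interval is known as the one of CDR1as, a circRNA rich in microRNA target sites. Its host had 654 reads in SK-Hep-1, against 6 in Huh-7D12, 2 in HepG2 and 0 in Hep3B. All 5 hosts were therefore high in SK-Hep-1 together with their circles.

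The other 7 that stood higher in SK-Hep-1 had 5 to 8 reads there and at most 1 read in any other line. They were the short SLC8A1 loop, another AXL loop, and loops of UGCG, SMURF2, SPIRE1, VEZT and CRIM1. Their names are given to complete the count and were chosen after their values were seen.

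The circles that stood lower in SK-Hep-1 all had 0 reads there. GPC3 is a glypican that liver cancers often carry on their surface. It had no read in SK-Hep-1, against 9 in Huh-7D12, 24 in Hep3B and 30 in HepG2. Its level in SK-Hep-1 was lower than in Huh-7D12 by a floor fold of 2.41. Another GPC3 circle had no read in SK-Hep-1, against 5 in Huh-7D12, 17 in Hep3B and 9 in HepG2. The GPC3 gene had 0 reads in SK-Hep-1, against 15448 in HepG2, 14409 in Hep3B and 8507 in Huh-7D12. APOA1 likewise had 0 gene reads in SK-Hep-1. GSPT1, a translation termination factor, was different. Its loop of exons 2 and 3 had 0 reads in SK-Hep-1, against 15 in Hep3B, 13 in Huh-7D12 and 6 in HepG2. Its level in SK-Hep-1 was lower than in HepG2 by a floor fold of 2.07. The GSPT1 gene, however, had 2119 reads in SK-Hep-1, against 4493 in Hep3B, 3480 in Huh-7D12 and 5191 in HepG2. A count of 0 allows up to 1.42 back-splice reads per 1000 GSPT1 gene reads in SK-Hep-1, against 3.34 in Hep3B, 3.74 in Huh-7D12 and 1.16 in HepG2. The value of HepG2 lies under that limit, so a lower ratio than in HepG2 was not detectable at this depth. The other 7, chosen after their values were seen, were KLHL8, ZBTB20, ZRANB1, CLASP1, USP7, ZSWIM5 and BAZ1A, with 4 to 13 reads in the other lines.

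Huh-7D12 had the 2 circles whose gene went the other way most clearly. The ALB loop is exon 14 of serum albumin, which holds 42 coding bases and 26 bases of 3′ untranslated sequence. It had 36 reads in Huh-7D12, against 0 in Hep3B, HepG2 and SK-Hep-1 (floor fold 9.32). The ALB gene had 70923 reads in Huh-7D12, against 298342 in Hep3B, 89823 in HepG2 and 0 in SK-Hep-1. The circle had 0.508 back-splice reads per 1000 gene reads in Huh-7D12, while a count of 0 allows up to 0.0101 in Hep3B and 0.0334 in HepG2. The circle was thus seen in 1 of the 3 lines that express the gene, and not in the one with the most gene reads. This loop is shorter than the read length, and the introns beside it, 614 and 770 bases, are short.

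LPAR3, another receptor of lysophosphatidic acid, had 32 reads for its exon 2 loop in Huh-7D12, against 0 in the other lines (floor fold 8.28). The LPAR3 gene had 401 reads in Huh-7D12, against 715 in SK-Hep-1, 12 in Hep3B and 0 in HepG2. Per 1000 gene reads the circle had 79.8 in Huh-7D12, while a count of 0 allows up to 4.20 in SK-Hep-1. The short LPAR1 circle was thus seen almost only in SK-Hep-1 and the LPAR3 circle only in Huh-7D12, with gene reads of LPAR3 in both lines. AFF2, of the AF4/FMR2 family, had 17 reads in Huh-7D12, against 0 in the other lines (floor fold 4.40). Its gene level was 9.30 on the per-million scale in Huh-7D12, against 0 in HepG2 and SK-Hep-1 and 0.0349 in Hep3B. SETBP1, which binds the SET protein, had 23 reads in Huh-7D12, against 4 in Hep3B, 1 in HepG2 and 0 in SK-Hep-1, and was 6.99-fold higher than in Hep3B (2.39 to 27.8). Its gene had 681 reads in Huh-7D12, against 475 in Hep3B, 155 in HepG2 and 8 in SK-Hep-1. WDR72, with 6 reads in Huh-7D12 and 0 elsewhere, was the remaining one of the 5 with the largest distance, and SEC61A1 and AFTPH, named after their values were seen, completed the 7.

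In HepG2 the 3 were PRCC with 7 reads, complement C3 with 6 and the small GTPase ARF4 with 5, against at most 1 read of each in any other line. The PRCC gene was not highest in HepG2, with a level of 33.7 on the per-million scale there, against 64.7 in Hep3B, 32.4 in SK-Hep-1 and 58.5 in Huh-7D12. In Hep3B the single one was ESRP1, an epithelial splicing regulator, with 9 reads in Hep3B and 0 elsewhere. The ESRP1 gene had 1771 reads in Hep3B, against 1 in Huh-7D12, 2 in SK-Hep-1 and none in HepG2. None of these 4 passed with 4 times the pseudocount or with an entry level of 10 times the pseudocount.

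Host genes and their circles come from the same libraries, and their differences are given side by side. The 23 short circRNAs that stood higher in a line came from 21 hosts, since AXL and SLC8A1 gave 2 each. Of these hosts 17 were also highest there, and 9 passed 4-fold themselves. For all spans the counts were 83 and 34 of 116 hosts. In SK-Hep-1 all 10 hosts were highest and 7 passed 4-fold, where 5.37% of all 15850 genes stood higher, and in Huh-7D12 4 of 7 hosts were highest and 1 passed, where 1.52% did. In HepG2 0 of 3 hosts passed, where 1.46% of genes did, and in Hep3B 1 of 1, where 0.808% did. The 11 short circRNAs that stood lower in SK-Hep-1 came from 10 hosts, of which 8 were lowest there and 3 passed 4-fold (GPC3, APOA1 and ZSWIM5), where 3.31% of genes stood lower. The other 7 hosts were within 4-fold. The hosts on the opposite side were PRCC, AFTPH, ALB, LPAR3, BAZ1A and ZBTB20.

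**Figure D5:**
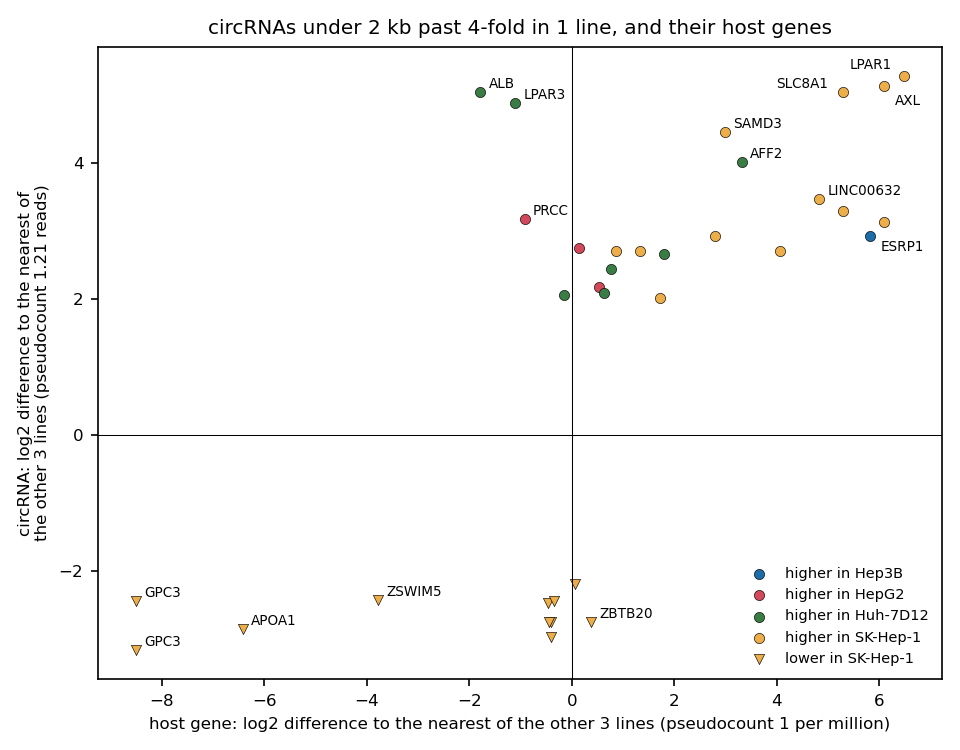
Log2 difference of the 34 calls of short circRNAs (y axis, pseudocount 1.21 normalized back-splice reads) against that of their host gene (x axis, pseudocount 1 on the per-million scale), each between the line named in the legend and the nearest of the other 3 in that direction. LPAR1, AXL and SLC8A1 lie at the upper right in SK-Hep-1, GPC3 and APOA1 at the lower left, and ALB and LPAR3 in Huh-7D12 have a raised circle and a host under that of another line.

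By host list, 31 of 60 genes known for their circRNAs had a short one, 39 in all, with 19.6% of the reads of the class and a median of 11 reads, against 3 over all short circRNAs. This list was drawn up from circRNAs known for their abundance, and with earlier results of these data known. It includes LPAR1 and LPAR3. Its read levels and its calls are therefore not independent of how it was chosen. Of the 23 that entered, 4 stood higher in SK-Hep-1 (both SLC8A1 loops, LPAR1 and CRIM1), where 8.16% of all circRNAs that entered did, and 1 in Huh-7D12 (LPAR3), where 6.39% did. CDR1 is on the list too, but the CDR1as circle, listed under LINC00632, is not in any of these counts. None of the 23 stood lower in SK-Hep-1, where 3.67% of all did. Of 48 hepatocyte genes 7 had a short circRNA, 8 in all, with 49 reads in Huh-7D12, 30 in Hep3B, 29 in HepG2 and 0 in SK-Hep-1. Beside ALB, APOA1 and C3 these were APOB, AHSG, FGB and ITIH2 with 2 to 6 reads each, although APOB had 93776 to 247155 gene reads in the 3 lines that express it. The gene groups that follow were drawn by symbol prefix and are not complete. AXL, for example, is not among the kinases, and ASH1L is not among the chromatin genes. Zinc finger factors gave 49 short circRNAs, 3.75% of the class and 6.19% of its reads, against 2% and 3.58% over all spans. Chromatin genes gave 43 (3.29% and 5.71% of reads, against 3.59% and 4.71%), kinases 28 (2.14% and 4.69%, against 2.50% and 3.04%) and the ubiquitin system 54 (4.13% and 4.94%, against 4.71% and 4.41%). RNA-binding and splicing genes gave 41 (3.14% and 2.09%, against 2.30% and 2.74%), and genes of small GTPases and membrane traffic gave 22 (1.68% and 1.52%, against 3.33% and 4.01%). The median was 2 to 4 reads in each of these 6 groups. The shares of reads rested heavily on single circles. CDYL held 235 of the 461 reads of chromatin genes, HIPK3 145 of the 379 of kinases and FBXW7 120 of the 399 of the ubiquitin system. Of the 500 reads of zinc finger factors, ZKSCAN1 held 139 and ZNF609 82. The examples that follow were chosen after their values were seen. ZNF131 had 19 reads in Hep3B, 19 in Huh-7D12, 9 in HepG2 and 3 in SK-Hep-1. The protein kinase D gene PRKD3 had 19 in Huh-7D12, 14 in Hep3B, 2 in HepG2 and 1 in SK-Hep-1, and the ubiquitin ligase gene RNF220 had 14 in Hep3B, 12 in Huh-7D12, 3 in HepG2 and 1 in SK-Hep-1. All 3 were thus lowest in SK-Hep-1 by reads and did not pass 4-fold. The RNA helicase gene DDX21 was more even, with 8 in Hep3B, 7 in SK-Hep-1, 3 in HepG2 and 4 in Huh-7D12. TBC1D14, of the family of Rab GTPase-activating proteins, had 16 in Huh-7D12, 3 in HepG2, 1 in Hep3B and 0 in SK-Hep-1. The acetyltransferase gene CREBBP had 3 to 5 reads in every line. Of the 40 members of these groups that entered, 1 stood higher in SK-Hep-1 (SMURF2), where 8.16% of all circRNAs that entered did, and 4 lower (ZBTB20, KLHL8, USP7 and BAZ1A), where 3.67% did.

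At the limit of 2000 bases, circRNAs just inside were HEATR5B at 1988 with 1 read in all, from SK-Hep-1, and UBE2E3 at 1991 with 3, from Hep3B. Those just outside were PCMT1 at 2009, CDC42BPB at 2010 and AAK1 at 2011, with 2 to 4 reads in all.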

How the data were processed

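The authors deposited signal values, which are normalized read numbers per gene and per back-splice junction; each value is the whole reads of a library times 1 factor (0.890 in Hep3B, 1.39 in HepG2, 1.08 in Huh-7D12, 1.35 in SK-Hep-1). Dividing by the factor gave whole numbers, within 0.001, for 100% of the deposited values. STAR 2.6.1d and hg38 are named per the submitters' processing notes. How back-splices were called, how genes were counted (strand included) and how the factor was set is not stated in the sources used here, so reads of overlapping genes on opposite strands may not be apart. Gene reads summed to 24409250, 22950383, 18581156 and 20938569, and back-splice reads to 12916, 6235, 13515 and 7740, in the same order of lines. An empty value was taken as 0 reads.

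Of 12473 circRNAs, 8000 had a value, and the 396 with several hosts or none were left out. The deposited positions flank the loop, so the first and last base inside it are printed, counted from 1 on GRCh38. Exons, introns and loop sequences come from GENCODE 29, whose transcript with both loop ends was used. The letters of the introns beside the loop were not analysed here. Gene levels were set to a per-million scale through the mean column total, with a pseudocount of 1 and an entry level of 1, which 15850 genes passed. Intervals are Wilson for shares, exact Poisson for levels and exact (Clopper-Pearson) for ratios of 2 libraries. A fold against 0 reads (floor fold) used a floor of 3 reads per library. It took the other count as exact, without counting error, so it is not a lower limit. It can fall under 4 for circRNAs that pass 4-fold with the pseudocount. Reads of the ring also reach the gene reads where the counter counts them, which is not stated.

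The circRNAs named are the 15 with the highest mean, for each line the 5 standing highest and the 3 standing lowest against the others, those of known circRNA hosts with at least 10 reads in 1 line, the hosts with the most members, the longest and shortest loops, those beside the span limit and 5 pairs with a shared end. Some named by this rule are not reported here. Members and lists were chosen with earlier results of these data known. Python 3.11.15, pandas 2.3.3, numpy 2.4.6 and scipy 1.17.1 were used.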

Additional observations from a re-analysis of the deposited data

Results flagged for a closer look

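Reads of short circRNAs that the comparisons do not use were counted apart. The 69 circRNAs under 2 kb with several host genes or none held 227 back-splice reads in Hep3B, 198 in Huh-7D12, 44 in HepG2 and 40 in SK-Hep-1, and were noted because the deposited table holds this signal outside the comparisons. They amount to 7.95% of the short back-splice reads in Hep3B, 7.14% in Huh-7D12, 2.92% in HepG2 and 2.76% in SK-Hep-1. The one with the most reads overlaps SPECC1 and AC004702.1, at chr17:20204333-20205912, with 105 reads in Hep3B, 35 in Huh-7D12, 4 in HepG2 and 1 in SK-Hep-1. The next overlaps RBM4 and the readthrough gene RBM14-RBM4, at chr11:66639700-66640123, with 67 reads in Huh-7D12, 27 in Hep3B and 0 in HepG2 and SK-Hep-1.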

How the results depend on the processing

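No paired analysis was possible because each line has 1 library. The share of circRNAs under 2 kb was 21.1% among those with at least 5 reads in 1 line, and 13.7% and 19.9% with limits of 1500 and 2500 bases. With the limit of 1500 the share of reads was 20.9% in HepG2, 17.8% in Hep3B, 15% in SK-Hep-1 and 16.9% in Huh-7D12. With 2500 it was 28.2% in HepG2, 24.8% in Hep3B, 22.9% in SK-Hep-1 and 23.1% in Huh-7D12. Without the 3 short circRNAs with the most reads in the line it was 22.1% in HepG2, 20.2% in Hep3B, 17.4% in SK-Hep-1 and 19% in Huh-7D12, so HepG2 was highest in all 3 settings. The share found in all 4 lines was 5.20% with at least 2 reads in each and 66.2% of those with at least 10 reads in total, where all spans together had 61.2%. The cause of these shifts was not tested.

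Counts of calls rested on few reads. A pseudocount of 0.607 gave 2 higher in Hep3B, 1 lower in Hep3B, 1 lower in HepG2 and 18 lower in SK-Hep-1. With 4 times the pseudocount 5 were higher in SK-Hep-1, 3 in Huh-7D12, 0 in HepG2 and 0 in Hep3B, and 0 were lower in SK-Hep-1. An entry level of 2 times the pseudocount, and no entry level, both gave 36 higher in SK-Hep-1, 22 in Huh-7D12, 16 in HepG2 and 7 in Hep3B. An entry level of 10 times gave 5 higher in SK-Hep-1, 4 in Huh-7D12, 0 in HepG2 and 0 in Hep3B, and 6 lower in SK-Hep-1. Scaling to gene reads outside mitochondrial genes gave 2 higher in Hep3B and 1 lower in HepG2. Scaling to all back-splice reads gave 19 higher in SK-Hep-1, 4 in Huh-7D12, 7 in HepG2 and 2 in Hep3B, with 1 lower in Huh-7D12.

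Among circRNAs with at least 5 reads in 1 line, 91.4% had both ends in 1 transcript, 46.9% were single exons and 42.7% began at exon 2, and the introns beside them had medians of 9737 and 9231 bases. The other 52 values moved by at most 1.5 times for a count, stayed inside the counting interval for a share and inside the quartiles for the loop length (median 370 bases with at least 5 reads). Among them, the numbers of short circRNAs at equal depth stand in the text, and the share of higher circles whose host passed 4-fold was 39.1% with a gene pseudocount of 4, against 47.8%. The letters of the introns beside the loop were not run. The numbers at equal depth and the exon letters at the join were added after seeing the data. Depth limits the rarest circRNAs most: 168 of the 1307 had 1 read in all.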
